A study of Arabidopsis thaliana with 18 samples.

Results

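The plastid (chloroplast) genome of Arabidopsis thaliana was followed through its 69 protein-coding genes that have a probe set of their own on the array. A probe set is the group of short probes that reports 1 transcript. The members were taken by gene symbol from the platform annotation, as probe sets that name 1 gene with a plastid gene symbol, and the mitochondrial gene matR was left out. They were 69 of the 22746 probe sets tested, all 69 are listed on the plastid chromosome in the RefSeq gene table, and each names a different gene. Another 8 probe sets, which name both copies of a gene in the inverted repeat, were kept apart.

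Seedlings of elf3-7, tfl1-1 and wild type (WT, Columbia) were grown to an age of 10 days at 23 °C or at 16 °C under continuous cool-white fluorescent light. The groups were elf3-7 at 23 °C, elf3-7 at 16 °C, tfl1-1 at 23 °C, tfl1-1 at 16 °C, WT at 23 °C and WT at 16 °C, all on agar with MS salts and without any other treatment named in the labels. Each group had 3 biological replicates with separately prepared RNA, lettered A, B and C, so 18 arrays were compared. ELF3 acts in the circadian clock, and TFL1 represses flowering in the shoot meristem. No probe set was named here as either gene, so their own signal could not serve as a check of the genotype labels.

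The plastid genome encodes core subunits of the photosynthetic complexes, the large subunit of Rubisco, part of the plastid ribosome and the subunits of a bacterial-type RNA polymerase, while the nuclear genome encodes the other subunits and the regulators. Plastid genes lie in clusters that are copied together into long transcripts, which are then cut, spliced and edited. A second, phage-type polymerase encoded in the nucleus also transcribes plastid genes, with the housekeeping genes among its best known targets.

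Values were log2 expression values, so a difference of 1 is a doubling. The mean of each of the 69 members lay above 3.99, the 95th percentile of the Bacillus control probe sets in replicates A and B. Their means over the 18 arrays ran from 7.41 for psbN, 7.42 for ndhF and 7.72 for atpI up to 13.17 for psbM, 13.44 for atpE and 13.50 for atpB. Probe sets differ in brightness, so these levels are not amounts and genes were compared only with themselves. In these whole-seedling samples, fewer plastids or green cells and less RNA per plastid cannot be told apart. Of the nuclear genes for photosystems and light harvesting, 7 were measured, and their mean lay between 11.9 and 12.4 on every array. Of 3 root markers, PYK10 lay between 11.2 and 12.4 on every array. The root hair genes EXPA7 and EXPA18 reached 6.11 and 7.14 at 16 °C, but lay below 3.99 on all arrays of tfl1-1 and WT at 23 °C, where PYK10 alone marks root. No seed storage gene of the list was measured.

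Replicate C stood apart from A and B and is described first, because each comparison of groups holds 1 such array on either side. On the 6 arrays of replicate C the 24 probe sets for Bacillus controls had a mean of 5.70 ± 0.73 (SD), against 3.21 ± 0.04 on the 12 arrays of A and B. The excess of 3′ over 5′ signal in 4 pairs of actin and GAPDH probe sets, which grows as RNA or labelling quality falls, was 2.28 ± 0.34 in C against 1.28 ± 0.14 in A and B. The labels do not say what the letters share. The part of these differences in the results below was not tested.

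The mean over the 69 plastid probe sets was higher in replicate C than in either A or B of the same group in all 6 groups. It was 11.12 in C against 9.87 and 10.28 in A and B of elf3-7 at 23 °C, and 10.95 against 10.33 and 10.15 in elf3-7 at 16 °C. In tfl1-1 it was 11.02 against 10.52 and 10.16 at 23 °C, and 10.56 against 10.22 and 10.45 at 16 °C. In WT it was 10.70 against 10.08 and 10.57 at 23 °C, and 10.99 against 10.17 and 10.73 at 16 °C. The gap was widest in elf3-7 at 23 °C (1.04) and narrowest in tfl1-1 at 16 °C (0.23). The mean over all probe sets was 5.76 in replicate C and 5.77 in A and B. The processing puts the arrays on a common scale, so this mean could hardly have moved and does not serve as a check.

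**Figure D1:**
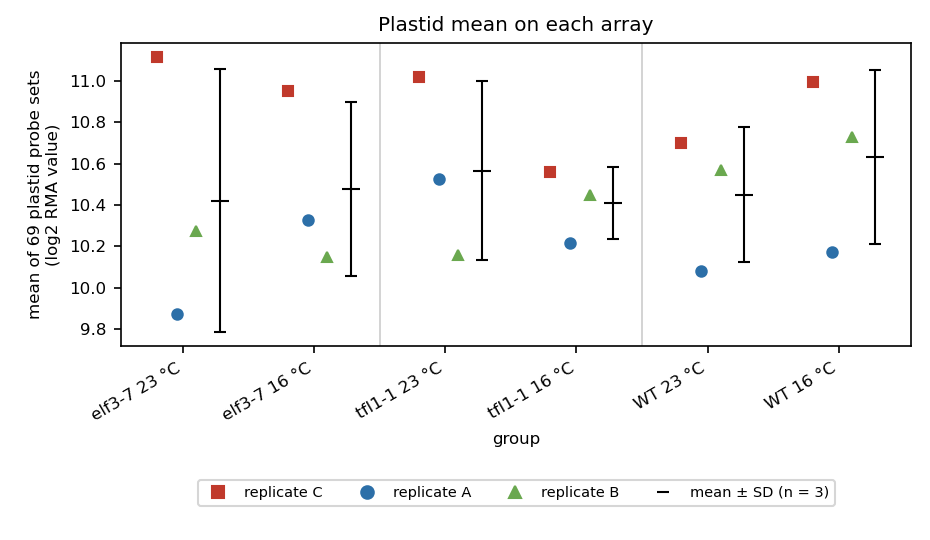
Mean log2 value of the 69 plastid probe sets on each of the 18 arrays (vertical axis), by genotype and temperature. Squares, circles and triangles are replicates C, A and B, and the bar is the group mean ± SD (n = 3). Replicate C is the highest array in all 6 groups, and the group means lie between 10.41 and 10.63.

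In a model with the 6 groups and a term for replicate C, 35 of the 69 members were called (limma, adjusted p under 0.05). Against the mean of A and B, 34 were higher and 1 lower in replicate C. That replicate C stood apart was known from an earlier look at these same arrays. The calls and their p-values therefore describe that gap and are not independent support for it. Over all 22746 probe sets the share called was 26.3%, with 13.6% higher and 12.7% lower. The median difference was 0.41 over the members and 0.01 over all probe sets. For 26 members replicate C was above both A and B in all 6 groups, against 6.74% of all probe sets. For 12 members all 6 arrays of C lay above all 12 arrays of A and B, against 1.27% of all probe sets. When every array was centred on its plastid mean, the split was 16 higher and 22 lower. In that setting 84.5% of all probe sets were called, a larger share than among the members. That centring shifts the median of all probe sets to -0.59, and relative to their own mean the members lay on both sides. Of the 34 genes called higher without it, 8 then had a value below 0, and psbJ was called lower (-0.31 ± 0.14, adjusted p = 0.044).

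The members differed widely in how far replicate C lay from A and B. The largest differences were in petL and rpl16. PetL, a small subunit of the cytochrome b6f complex, had values of 11.7 to 12.3 in C (median 11.99, n = 6) against 8.33 to 9.53 in A and B (median 9.15, n = 12). The ranges are far apart, and the difference was 2.98 ± 0.15 (SE; 7.89-fold, adjusted p = 7.94e-08). The gene rpl16, for a protein of the large ribosomal subunit, had values of 11.7 to 12.5 in C (median 12.4) against 7.96 to 10.6 in A and B (median 9.65). Its difference was 2.94 ± 0.39 (7.68-fold, adjusted p = 0.00011), again without overlap.

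Among ribosomal protein genes, 9 of 15 were called, all higher in replicate C. Of all members 49.3% were called higher, and of all probe sets 13.6%. Whether any role differs from the other members was not tested. In the large subunit these were rpl16, rpl36 (1.62 ± 0.12), rpl14 (1.45 ± 0.21) and rpl20 (0.73 ± 0.24). In the small subunit they were rps15 (1.20 ± 0.18), rps4, an rRNA-binding protein needed to start assembly (0.94 ± 0.22), rps2 (0.77 ± 0.24), rps19 and rps16. In contrast, rpl33 and rpl22 had differences of -0.35 ± 0.13 and -0.27 ± 0.10, which did not pass (adjusted p = 0.063 and 0.053). Of the 4 RNA polymerase subunits, rpoA was higher by 1.47 ± 0.11 (2.78-fold) and rpoC2 by 1.29 ± 0.24. The catalytic core genes rpoC1 and rpoB had differences of 0.35 ± 0.16 and 0.38 ± 0.32 and were not called.

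In photosystem II, 5 of 15 genes were higher in replicate C and 1 was lower. The shares higher and lower were 49.3% and 1.45% of all members, and 13.6% and 12.7% of all probe sets. The gene psbN, needed for assembly of the complex, was higher by 1.62 ± 0.22. The small subunit gene psbZ was higher by 1.3 ± 0.14, and psbC, for the inner antenna protein CP43, by 1.17 ± 0.26, while psbT and psbJ differed by 0.52 ± 0.18 and 0.28 ± 0.08. The reaction centre genes psbA (D1) and psbD (D2) had differences of 0.12 ± 0.17 and 0.44 ± 0.18, and psbB (CP47) one of 0.39 ± 0.21, none of them called. The exception in direction was psbE, for the alpha subunit of cytochrome b559. It had 10.2 to 10.9 in C (median 10.8) against 10.6 to 11.8 in A and B (median 11.1), and was lower in C than both A and B in every group, though the ranges overlap. The difference was -0.44 ± 0.10 (adjusted p = 0.0062). Next to it in the genome lie petL, the gene with the largest rise, and psbF, the beta subunit, which had a difference of -0.08 ± 0.07. The gene psbH had one of -0.22 ± 0.16.

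For the other complexes the count varied, and differences between complexes were not tested. The share called higher was 49.3% of all members and 13.6% of all probe sets. In photosystem I and its assembly factors 4 of 7 were higher: psaI (0.97 ± 0.19), the assembly factor ycf3 (0.93 ± 0.18), the reaction centre gene psaB (0.65 ± 0.15) and psaJ (0.57 ± 0.12). The reaction centre partner psaA had 0.30 ± 0.35, and psaC, which carries the terminal iron-sulphur clusters, 0.21 ± 0.21. In ATP synthase 5 of 6 were higher, led by the membrane ring subunit atpH (1.21 ± 0.18), with atpF, atpI, atpA and atpE between 0.36 and 0.99. The sixth, atpB of the catalytic head, had 0.20 ± 0.15. In the NDH complex, which feeds electrons back into the chain, 4 of 10 were higher: ndhK (1.36 ± 0.18), ndhJ (1.1 ± 0.18), ndhC (0.70 ± 0.08) and ndhE (0.46 ± 0.15). In cytochrome b6f, petG (0.78 ± 0.17) joined petL, while petA, petB and petD had 0.35 ± 0.19, 0.03 ± 0.07 and 0.24 ± 0.26. The Rubisco gene rbcL had 0.44 ± 0.23 (adjusted p = 0.18). Among the remaining genes the splicing factor matK, the protease subunit clpP and the cytochrome assembly factor ccsA were higher (0.40 to 0.53), and accD and cemA were not called (0.32 ± 0.17 and 0.39 ± 0.22).

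Several of the called genes are neighbours. In genome order the run atpA, atpF, atpH, atpI, rps2 and rpoC2 was called throughout, with differences of 0.63 to 1.29. The ndhJ, ndhK and ndhC run and the psbC and psbZ pair were also called. The members rpoA, rpl36, rpl14 and rpl16, which follow one another with unmeasured genes between them, had 1.45 to 2.94. The next members, rps3 and rpl22, had 0.13 ± 0.08 and -0.27 ± 0.10 although they belong to the same ribosomal protein cluster, and rps19 beyond them was higher again (0.71 ± 0.21). These runs were picked out after the values had been seen.

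**Figure D2:**
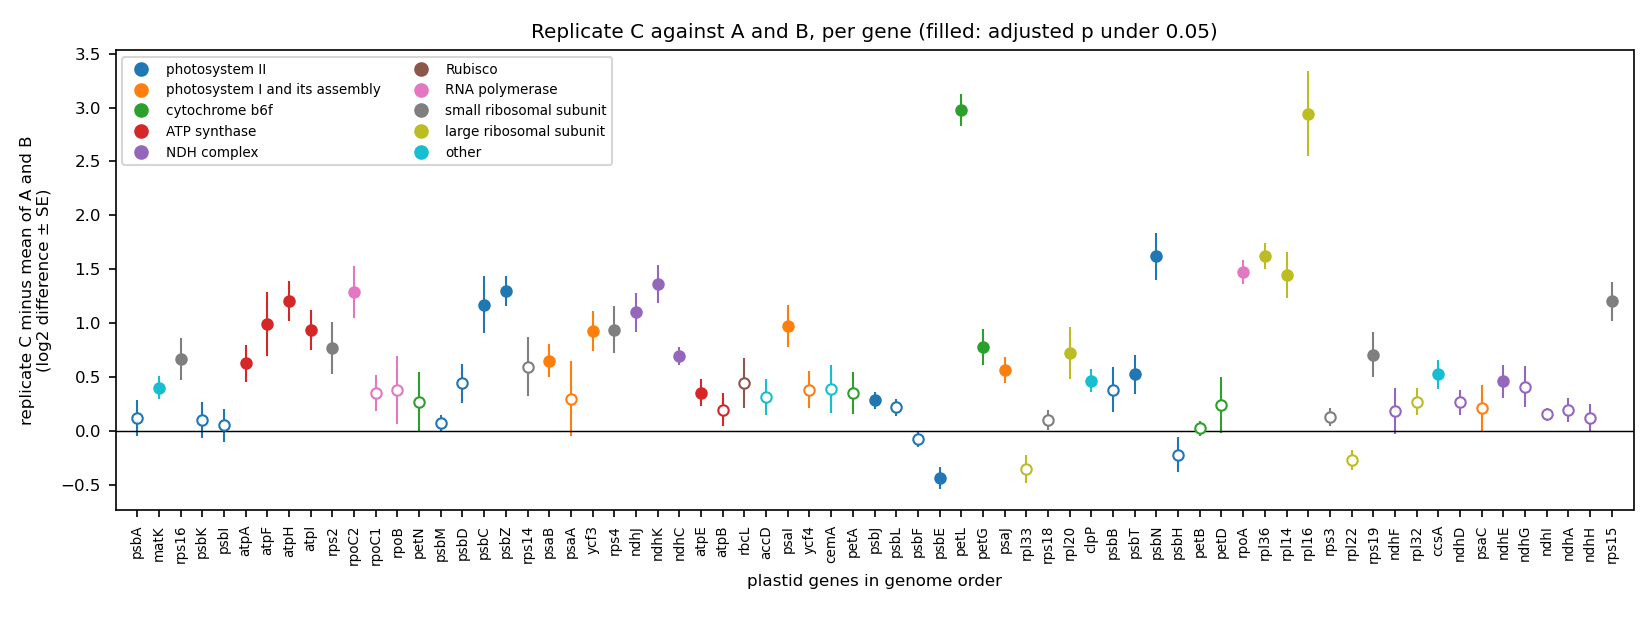
Difference between replicate C and the mean of A and B for each of the 69 plastid genes (vertical axis, log2, ± SE of the fit), in genome order (horizontal axis). Colours give the role of the gene and filled points passed an adjusted p of 0.05. The genes petL (2.98) and rpl16 (2.94) stand above all others, and psbE (-0.44) is the only filled point below 0.

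The difference was close to equal across groups for some genes and changed sign for others. For petL it was 3.12 and 3.09 in elf3-7 (23 °C and 16 °C), 3.04 and 2.66 in tfl1-1, and 2.96 and 3.02 in WT. By contrast, rps14, a small-subunit ribosomal protein gene, had differences of 1.69 and 1.79 in elf3-7, 0.96 and -0.53 in tfl1-1, and -0.34 and 0.02 in WT. For psaC they were 1.42 and 1.05 in elf3-7, -0.12 and -0.65 in tfl1-1, and -0.22 and -0.20 in WT. Both were thus high in replicate C of elf3-7 at either temperature and low in replicate C of tfl1-1 at 16 °C. Of the 69 members, 8 had C as the highest array in both elf3-7 groups and as the lowest in tfl1-1 at 16 °C and WT at 23 °C: rpoB, petN, rps14, psbF, psbB, petD, psaC and ndhG. For psbF the margin was narrow in elf3-7 at 16 °C, with 11.83 in C against 11.82 and 11.81 in A and B. This set was chosen after its values were seen and was given no test. The share of all probe sets with the same pattern is not given, so the pattern is not shown to be particular to the members.

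**Figure D3:**
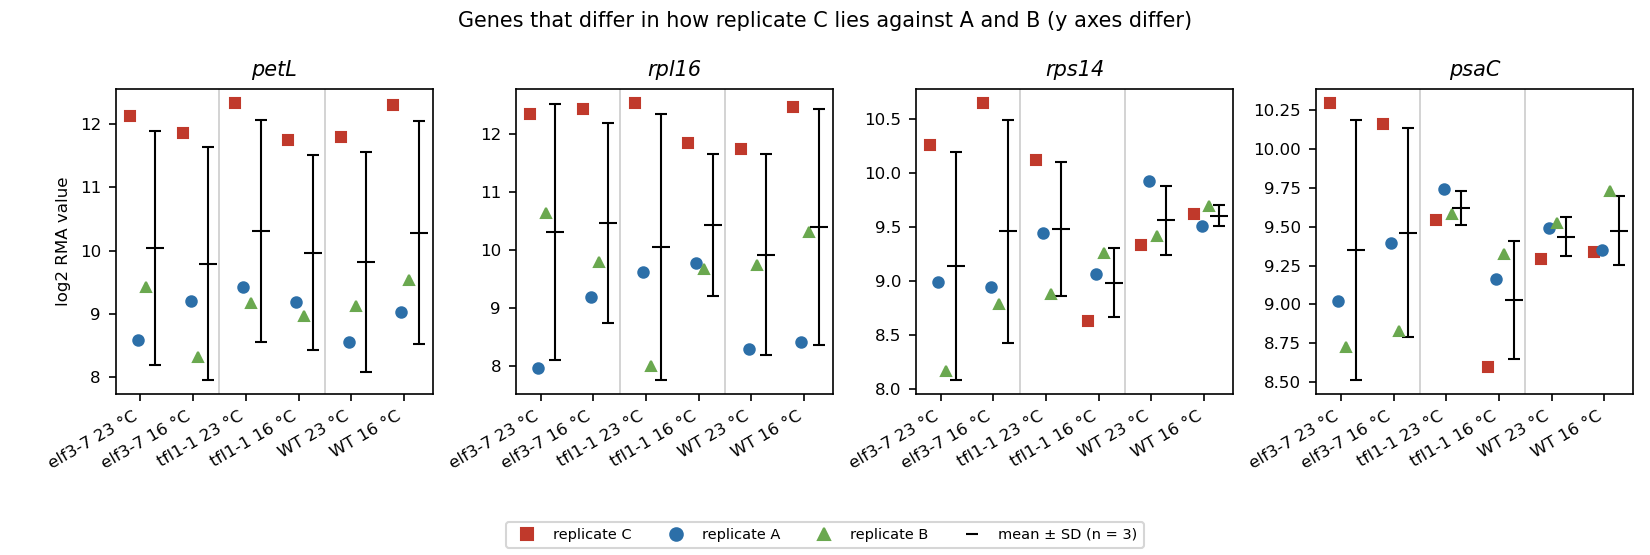
Log2 values of petL, rpl16, rps14 and psaC on each array (vertical axes, which differ between panels), by group. Squares, circles and triangles are replicates C, A and B, and the bar is the group mean ± SD (n = 3). In petL and rpl16 the squares lie above all other points, while in rps14 and psaC they are high in elf3-7 and at the bottom in tfl1-1 at 16 °C.

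The temperature comparison asked how growth at 23 °C instead of 16 °C changed expression in each genotype. Few plastid genes passed the test: 0 of 69 in elf3-7, 2 in tfl1-1 and 0 in WT. Over all probe sets the share called was 4.87% in elf3-7, 9.16% in tfl1-1 and 6.81% in WT, so the members' shares, 2.9% in tfl1-1 and 0 in the others, were below the background. At an unadjusted p under 0.05 there were 3 members in elf3-7, 7 in tfl1-1 and 1 in WT, which is 4.35%, 10.1% and 1.45% of the members against 22%, 25.2% and 22.6% of all probe sets. The arrays of a group differed more in the members than elsewhere on the array, with a median SE of 0.36 against 0.16 over all probe sets. With replicate C as a term the median SE of the members was 0.28, and 1, 5 and 0 members were called, against 13%, 17.7% and 14.1% of all probe sets.

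The 2 genes called in tfl1-1, both higher at 23 °C when 3.98% of all probe sets were called higher, were psbL and psbF of photosystem II. The gene psbL, for a small subunit, had 10.30, 10.35 and 10.22 (A, B and C) at 23 °C against 9.62, 9.66 and 9.65 at 16 °C. The groups do not overlap, and the gene rose by 0.65 ± 0.16 (1.56-fold, adjusted p = 0.023). The gene psbF had 12.62, 12.71 and 12.25 at 23 °C against 12.01, 12.11 and 11.999 at 16 °C. It rose by 0.49 ± 0.12 (1.40-fold, adjusted p = 0.025), also without overlap. Leaving out replicate A or B of tfl1-1 at 23 °C, or replicate A, B or C at 16 °C, lost both calls, with psbL at 0.61 to 0.65 (adjusted p = 0.058 to 0.086) and psbF at 0.40 to 0.52 (adjusted p = 0.059 to 0.11). In those fits 2.17% to 5.23% of all probe sets were called, against 9.16% with all arrays. Without replicate C at 23 °C psbE, psbF and psbL were called, when 19.1% of all probe sets were. Centred on the plastid mean, neither was called. In replicates A and B alone 4 members were called, psbE, psbF, psbL and psbJ, against 21.8% of all probe sets.

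These genes, psbE, psbF, psbL and psbJ, lie side by side in the plastid genome and are known to be transcribed together. The differences between 23 °C and 16 °C pointed upwards for all of them in every genotype. For psbE they were 0.51 ± 0.25 in elf3-7, 0.58 ± 0.25 in tfl1-1 and 0.41 ± 0.25 in WT. For psbF they were 0.34 ± 0.12, 0.49 ± 0.12 and 0.22 ± 0.12 in the same order. For psbL they were 0.44 ± 0.16, 0.65 ± 0.16 and 0.06 ± 0.16, and for psbJ 0.40 ± 0.18, 0.50 ± 0.18 and 0.12 ± 0.18. The value at 23 °C exceeded that of the same letter at 16 °C in 9 of 9 pairs for psbE and psbF and in 8 of 9 for psbL and psbJ. The exception was replicate C of WT for both genes, and no other member reached 8 of 9. Over all probe sets 21.2% reached 8 of 9 pairs and 9.06% reached 9 of 9.

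Averaged over the 3 genotypes, a comparison added after the values were seen, 4 members rose at 23 °C and none fell, and they were these 4. The rise was 0.50 ± 0.14 for psbE (adjusted p = 0.017), 0.35 ± 0.07 for psbF (adjusted p = 0.002), 0.38 ± 0.09 for psbL (adjusted p = 0.0056) and 0.34 ± 0.10 for psbJ (adjusted p = 0.019). That is 5.8% of the members, against 30.9% of all probe sets called in either direction and 15.3% called higher. Each of the 4 kept its call in 27 of 28 alternatives, leaving out any single array included, and lost it when arrays were centred on the plastid mean. The differences were then as large (psbE 0.52 ± 0.27, psbF 0.37 ± 0.22, psbL 0.41 ± 0.19 and psbJ 0.37 ± 0.18) with wider errors. In the same comparison the 3 root markers fell: PYK10 by 0.41 ± 0.14 (adjusted p = 0.037), EXPA7 by 0.96 ± 0.31 (adjusted p = 0.029) and EXPA18 by 1.48 ± 0.32 (adjusted p = 0.003). Their part in the rise of the 4 genes was not tested. With replicate C as a term 7 members were called (39.6% of all probe sets), adding a rise in rpoC1 (0.45 ± 0.15) and a fall in matK (-0.32 ± 0.10) and rps16 (-0.59 ± 0.18).

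The size of the psbE difference varied between the same-letter pairs. Each pair holds 1 array per temperature, so the letter and the single array cannot be told apart. In tfl1-1 psbE had 11.79, 11.84 and 10.81 (A, B and C) at 23 °C against 10.84, 11.08 and 10.79 at 16 °C, so the pairs differed by 0.96 and 0.76 in A and B but by 0.02 in C. In WT the values were 11.22, 11.68 and 10.90 at 23 °C against 10.84, 10.93 and 10.81 at 16 °C. In elf3-7 they were 11.20, 11.16 and 10.84 at 23 °C against 10.81, 10.63 and 10.23 at 16 °C, with like differences in all 3 letters (0.39, 0.52 and 0.61). In A and B of WT alone psbE was called (0.57 ± 0.16, adjusted p = 0.048), when 11.4% of all probe sets were.

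In elf3-7 every same-letter correlation of deviations was over 0.1. A shift shared by the C arrays raises every such correlation, so this does not show that A or B pair. With the letter as a block psbJ (0.40 ± 0.12, adjusted p = 0.042) and psbL (0.44 ± 0.14, adjusted p = 0.046) were called, when 12.8% of all probe sets were. With a term for replicate C instead, psbL was called (0.44 ± 0.13, adjusted p = 0.039) and psbJ was not, when 13% of all probe sets were. With neither the block nor that term no member was called, at adjusted p = 0.19 for psbJ and 0.12 for psbL.

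**Figure D4:**
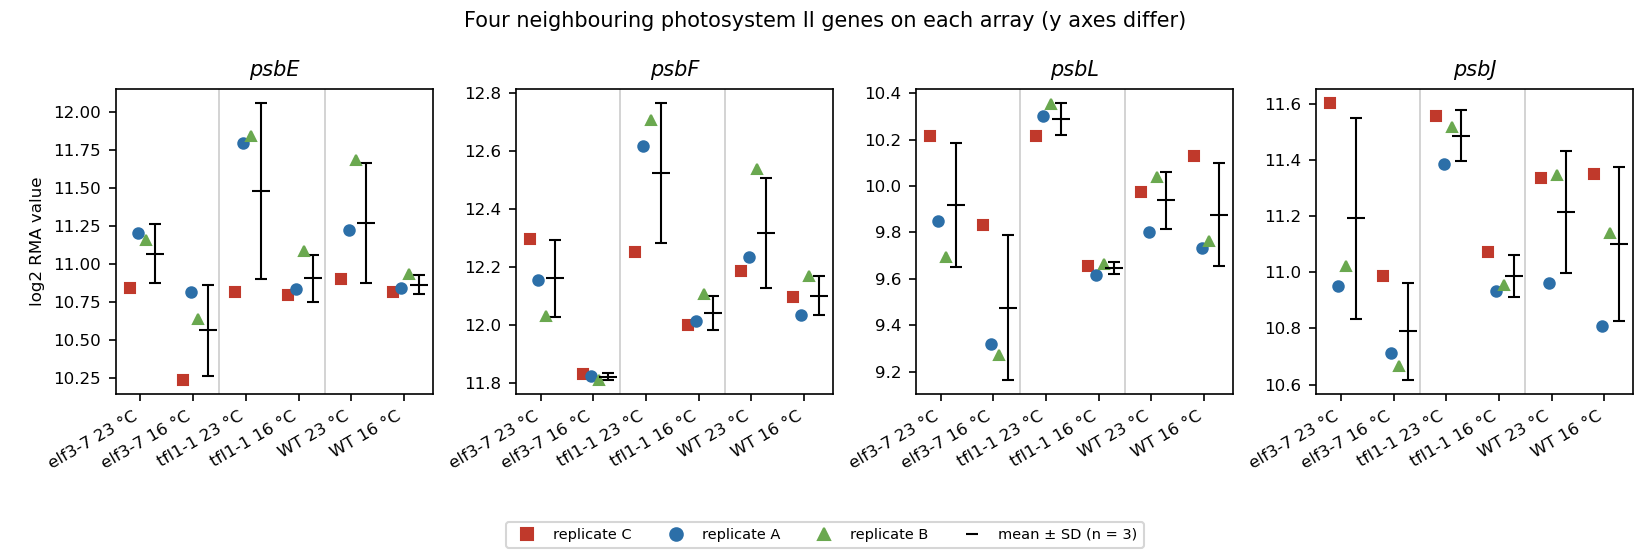
Log2 values of the neighbouring genes psbE, psbF, psbL and psbJ on each array (vertical axes, which differ between panels), by group. Squares, circles and triangles are replicates C, A and B, and the bar is the group mean ± SD (n = 3). In tfl1-1 the 23 °C points of psbF, psbL and psbJ all lie above the 16 °C points, and psbE shows a wide gap in A and B and almost none in C.

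Other photosystem II genes gave no call with all arrays in the fit. The D1 gene psbA had 11.61, 12.08 and 12.36 at 23 °C against 10.80, 11.81 and 11.15 at 16 °C in tfl1-1, and the groups overlap. Its difference was 0.77 ± 0.27 (95% interval 0.18 to 1.35, adjusted p = 0.092) in tfl1-1, 0.15 ± 0.27 (-0.43 to 0.74) in elf3-7 and 0.01 ± 0.27 (-0.58 to 0.59) in WT. Without replicate B of tfl1-1 at 16 °C psbA was called in tfl1-1 (1.05 ± 0.27, adjusted p = 0.048). In the other direction psbK and psbI had -0.50 ± 0.27 and -0.29 ± 0.25 in tfl1-1, and psbI had -0.48 ± 0.25 in WT. The psbT groups of WT did not overlap (-0.47 ± 0.37), with all 3 arrays at 23 °C below those at 16 °C.

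The widest temperature difference of any member was in rpoC1, a catalytic subunit of the plastid RNA polymerase. In tfl1-1 it had 10.83, 10.63 and 11.10 at 23 °C against 9.64, 10.16 and 9.88 at 16 °C. The groups do not overlap, but the difference of 0.96 ± 0.30 (1.95-fold) missed the threshold (adjusted p = 0.059). With replicate C as a term it was called (0.96 ± 0.27, adjusted p = 0.024). It was also called with the replicate block, equal array medians, the dim filter and array weights (adjusted p = 0.014 to 0.047). In those fits 9.72% to 31.2% of all probe sets were called. It was not called in A and B only, with quantile normalization, with trended and robust moderation, centred on the plastid mean, or without any 1 tfl1-1 array. In elf3-7 the difference was 0.27 ± 0.30 and in WT 0.13 ± 0.30. The other polymerase genes had differences of 0.58 ± 0.53 (rpoB), 0.35 ± 0.67 (rpoC2) and -0.14 ± 0.65 (rpoA) in tfl1-1. The nuclear gene RPOTmp, for a phage-type polymerase found in plastids and mitochondria, rose in tfl1-1 (0.56 ± 0.11, adjusted p = 0.0081) and had 0.08 ± 0.11 in elf3-7 and 0.37 ± 0.11 in WT (adjusted p = 0.055). It was the only one of 21 listed genes for plastid transcription that was measured.

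The Rubisco large subunit gene rbcL had 11.22, 10.42 and 11.12 at 23 °C against 9.73, 10.35 and 9.97 at 16 °C in tfl1-1, without overlap. The difference was 0.90 ± 0.42 (95% interval 0.01 to 1.79, adjusted p = 0.19), with 0.08 ± 0.42 in elf3-7 and 0.29 ± 0.42 in WT. Its letters did not move alike in WT, where A and B differed by 0.57 and 0.81 and C by -0.51. For photosystem I, psaC had 0.59 ± 0.36 and psaA -0.74 ± 0.57 in tfl1-1. The psaA pairs differed by 0.49, -1.79 and -0.92 (A, B and C), a spread wider than the mean. The cytochrome b6f gene petB had narrow intervals, 0.05 (-0.19 to 0.30) in elf3-7, 0.08 (-0.16 to 0.33) in tfl1-1 and -0.06 (-0.30 to 0.19) in WT. For petL and rpl16, whose replicate C values lie far from the rest, the SE was 1.29 and 1.40. With replicate C as a term it was 0.24 and 0.64, and neither gene was called: petL had 0.25 in elf3-7, 0.34 in tfl1-1 and -0.46 in WT, and rpl16 had -0.16, -0.38 and -0.47.

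No ribosomal protein gene was called. All 8 genes of the small subunit had negative differences in elf3-7 (median -0.20) and in WT (median -0.41), whereas 5 of 8 were positive in tfl1-1 (median 0.14). The gene rps16 had 6.76, 7.75 and 8.64 at 23 °C against 8.41, 8.06 and 8.96 at 16 °C in elf3-7, and 7.10, 7.68 and 7.94 against 7.67, 8.68 and 8.88 in WT. Every letter was lower at 23 °C in both genotypes, though the groups overlap. Its difference was -0.76 ± 0.42 in elf3-7, -0.16 ± 0.42 in tfl1-1 and -0.84 ± 0.42 in WT. The splicing factor gene matK was higher at 23 °C in 1 of 9 pairs, with -0.33 ± 0.24, -0.22 ± 0.24 and -0.40 ± 0.24 in the same order. At 8 of 9 pairs lower it stood alone among the members, where 17.8% of all probe sets were. In the NDH complex ndhH had -0.43 ± 0.21 in elf3-7, without overlap, 0.00 ± 0.21 in tfl1-1 and -0.15 ± 0.21 in WT.

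The direction over the whole set differed between genotypes, as a description. The difference was positive for 25 of 69 members in elf3-7, 45 in tfl1-1 and 16 in WT, and the median was -0.09, 0.13 and -0.20. Of all 22746 probe sets, 12521 were positive in elf3-7 (median 0.03) and 13220 in WT (median 0.05). The count over all probe sets in tfl1-1 is not given, so the 45 there is not shown to be particular to the members. The difference was positive in all 3 genotypes for 10 members and negative in all 3 for 15. Groups that did not overlap were found for 3 members in elf3-7 (2 higher), 10 in tfl1-1 (all higher) and 2 in WT (1 higher). Over all probe sets 26.5% (14% higher), 28.5% (15% higher) and 26.2% (13.7% higher) did not overlap. The plastid mean gave no steady direction either: between letters A, B and C it differed by -0.46, 0.13 and 0.17 in elf3-7, by 0.31, -0.29 and 0.46 in tfl1-1 and by -0.09, -0.16 and -0.29 in WT.

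**Figure D5:**
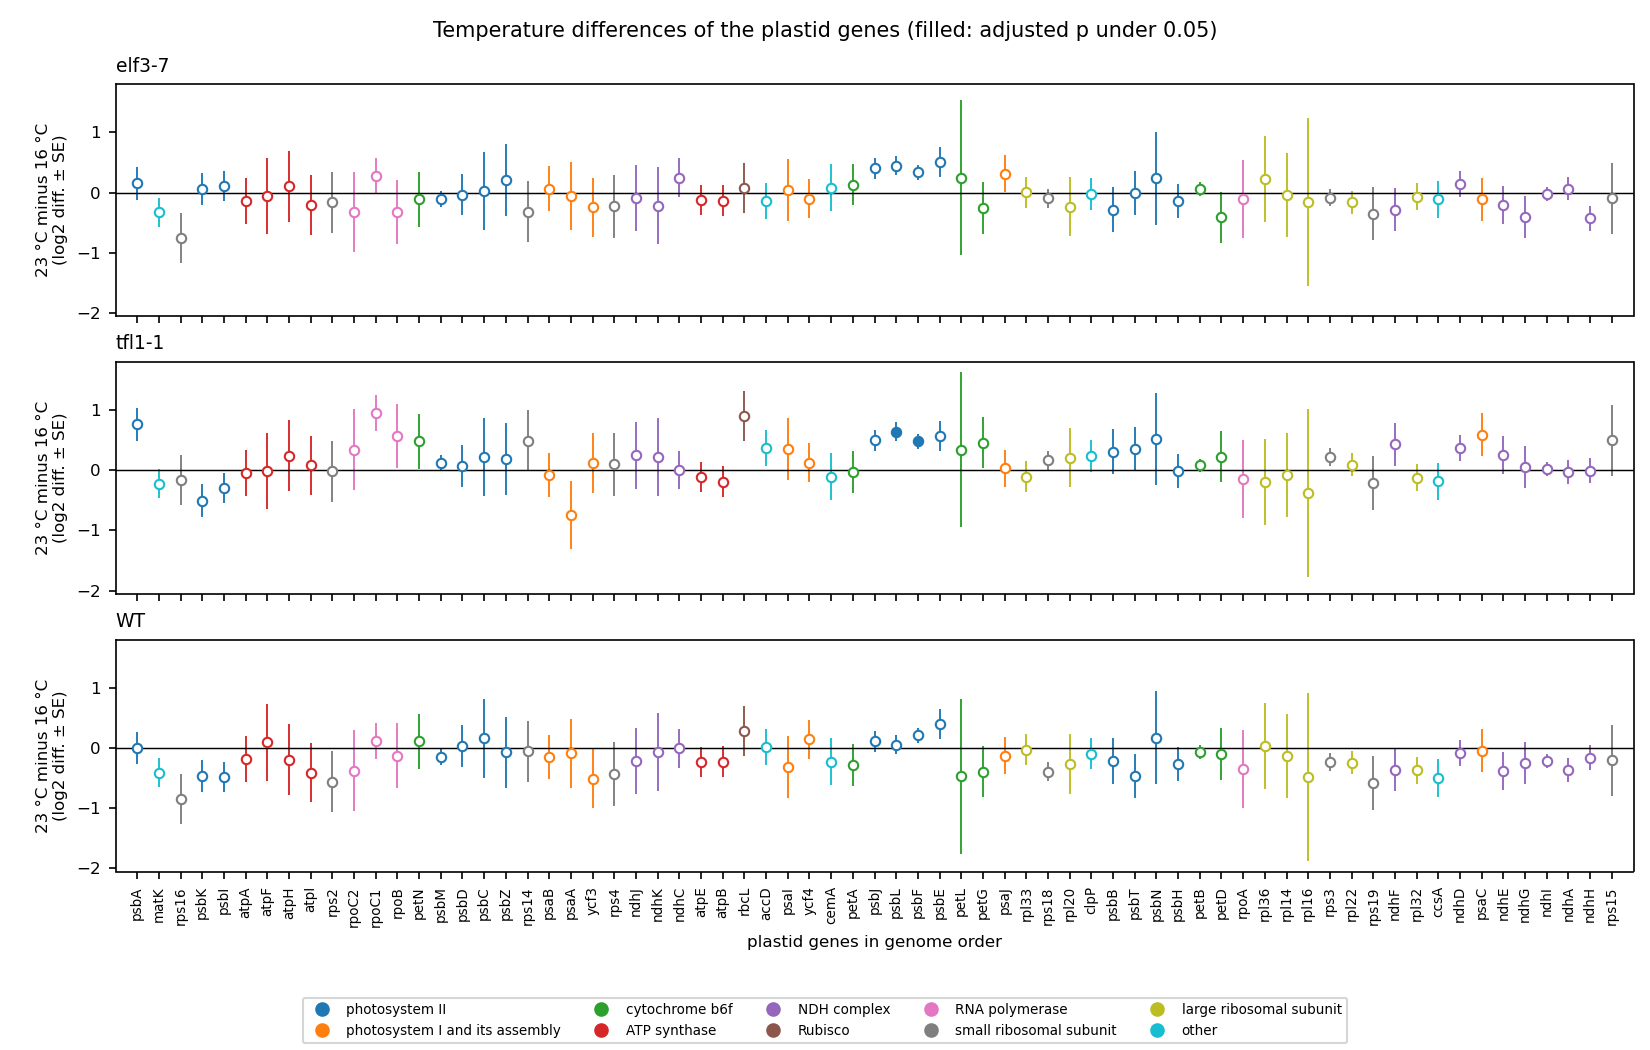
Difference between 23 °C and 16 °C for each of the 69 plastid genes (vertical axis, log2, ± SE of the fit) in genome order, in elf3-7, tfl1-1 and WT from top to bottom. Colours give the role of the gene and filled points passed an adjusted p of 0.05. The filled points are psbL (0.65) and psbF (0.49) in tfl1-1, and the adjacent psbJ, psbL, psbF and psbE points lie above 0 in all 3 panels.

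The mitochondrial genome, the other organelle genome on the array, gave more calls. Of its 23 probe sets 3 rose at 23 °C in elf3-7, 12 in tfl1-1 and 5 in WT, and none fell, with medians of 0.21, 1.03 and 0.39. In replicate C against A and B 4 were higher and 1 lower, with a median of 0.03. The nuclear photosystem and light-harvesting genes that were measured gave 1 call among 7 in tfl1-1, LHCB4.3, which fell (-1.45 ± 0.32, adjusted p = 0.013), and none in elf3-7 or WT. In replicate C against A and B LHCB4.3 was higher (0.47 ± 0.15) and PSBY lower (-0.24 ± 0.07), and the Rubisco activase gene RCA and the ATP synthase gene ATPC1 were also lower (-0.20 ± 0.04 and -0.26 ± 0.07). Root markers, which moved with temperature, had a mean of 6.85 ± 0.56 at 23 °C against 7.66 ± 0.91 at 16 °C in elf3-7, 6.31 ± 0.22 against 7.37 ± 0.26 in tfl1-1 and 6.26 ± 0.13 against 7.25 ± 0.68 in WT (SD, n = 3). None of the 3 was called in a single genotype, unlike in the mean over genotypes.

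Between genotypes no plastid gene was called. The count was 0 of 69 for elf3-7 against WT at 23 °C and at 16 °C, when 0.0308% and 0.268% of all probe sets were called. It was also 0 for tfl1-1 against WT, with 0.0352% of all probe sets at 23 °C and 0% at 16 °C. At an unadjusted p under 0.05 the members numbered 0 and 2 for elf3-7 and 1 and 3 for tfl1-1, at 23 °C and 16 °C, so 0% and 2.9%, and 1.45% and 4.35%. Over all probe sets the shares were 5.17% and 6.8%, and 8.46% and 7.55%. The smallest adjusted p of a member was 0.98 and 0.63 for elf3-7 and 0.58 and 0.58 for tfl1-1, at 23 °C and 16 °C. The members' median was -0.03 at 23 °C and -0.15 at 16 °C in elf3-7, and 0.10 and -0.26 in tfl1-1, within the spread of the arrays.

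Some groups were separate without passing the test. At 16 °C psbF had 11.82, 11.81 and 11.83 in elf3-7 against 12.04, 12.17 and 12.10 in WT, and psbE, ndhI and ndhA were also lower on every elf3-7 array. For psbE and ndhI the margin was narrow. The highest elf3-7 array had 10.8135 and 13.0165, against 10.8149 and 13.0414 on the lowest WT array. At 16 °C 9 members were lower on all tfl1-1 arrays than on all WT arrays, among them psaC, rpoB, petN, rps14 and psbL. At 23 °C 6 were higher in tfl1-1, among them psbJ, psbL and psaC. The shares of all probe sets that were separate in these directions were 7.23%, 11.2% and 3.52%, against 5.8%, 13% and 8.7% of the members.

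The test of whether the temperature difference itself depended on genotype gave 0 calls, for elf3-7 and for tfl1-1 against WT, among the members and among all probe sets (0%). For psbL the temperature difference in tfl1-1 exceeded that in WT by 0.58 ± 0.23 (unadjusted p = 0.021, adjusted p = 1), and for psbF by 0.27 ± 0.17 (adjusted p = 1). The rises called in tfl1-1 were thus not shown to differ from WT. The widest such differences among the members were in petG (0.85 ± 0.61), rpoC1 (0.83 ± 0.43) and psbT (0.83 ± 0.52) for tfl1-1, all at an adjusted p of 1.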

How the data were processed

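The authors deposited log2 expression values per probe set of an Affymetrix Arabidopsis array, made with RMA from biotin-labelled total RNA, per the submitters' processing notes. The RMA version, a genome build and the priming of the labelling reaction, which can matter for plastid transcripts, are not stated there. RMA subtracts background, puts the arrays on a common scale and summarises the probes, so a change shared by all transcripts is not visible, and differences of dim transcripts tend to be understated. The table held 22810 probe sets on 18 arrays, with values from 2.33 to 14.08. The arrays carry no read depth, and their number limits the precision.

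From these values, the 64 control probe sets were left out and the other 22746 were fitted in limma 3.58.1 (R 4.3.3) as 6 group means with empirical Bayes moderation. All tests were two-sided, with Benjamini-Hochberg adjustment over all probe sets of a comparison, and 0.05 was the threshold for a call. Errors given with a difference are standard errors of the fit, with 3 arrays a group. The contrast of replicate C with A and B came from the same model with a term for replicate C. The fit was also run on simulated data with independent noise on each array and no shift of replicate C. That run therefore does not show how the fit behaves under the replicate C gap. Python 3.11.15 (pandas 2.3.3, numpy 2.4.6, matplotlib 3.10.9) made tables and plots.

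Symbols came from the platform annotation, and the order of genes from the RefSeq gene table. Of 70 symbols that matched the rule, 1 (matR) was left out. Of 93 listed nuclear genes, 13 were measured, none of them among 10 for plastid RNA processing or 5 for seed storage. The rule for naming genes took, per comparison, 10 called members at most in each direction, fixed representatives of each role, the members with extreme levels or differences, and called genes of the lists. The members, lists and comparisons were chosen with earlier results of these data known. The mean over genotypes was added after the values had been seen.

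Whether the letters pair arrays was checked by correlating the deviations of same-letter arrays from their group means over all probe sets. A shift shared by the C arrays raises every such correlation, so a value over 0.1 cannot show that A or B pair. Every correlation passed 0.1 for the temperature comparison in elf3-7 (0.34 to 0.62) and in WT (0.30 to 0.55), and for elf3-7 and for tfl1-1 against WT at 23 °C, but not in tfl1-1 (-0.10 for A) or at 16 °C. Alternatives were a block for the letter, a term for replicate C, replicates A and B only, 3 other scalings, a filter on dim probe sets, array weights, trended and robust moderation, the repeat-region probe sets and leaving out each array. One probe set a gene was already the rule here.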

Additional observations from a re-analysis of the deposited data

Results flagged for a closer look

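Outside the members, the 24 Bacillus control probe sets were brighter in replicate C by 2.49 on the log2 scale, relative to A and B, a signal in probe sets that no comparison uses. Among the 8 probe sets of the inverted repeat, which the report's counts leave out because each names both gene copies, 3 were called higher in replicate C. They were the rps12 pair, with differences of 1.68 ± 0.30 and 1.56 ± 0.36 (adjusted p = 0.00099 and 0.0055), and rps7 with 1.75 ± 0.37 (adjusted p = 0.0032). Both genes encode proteins of the small ribosomal subunit. The ribosomal genes rpl2 and rpl23 of the same repeat had 0.01 ± 0.08 and -0.16 ± 0.07, ycf2, ndhB and ycf1 had 0.57 ± 0.29, 0.44 ± 0.30 and 0.17 ± 0.21, and none of these was called.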

How the results depend on the processing

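The count of plastid genes called between replicate C and A and B was 35, and 28 to 38 under every alternative run, with petL and rpl16 called in all 25. A count of 38 came from centring on the plastid mean, when 84.5% of all probe sets were called. Adding the repeat-region probe sets also gave 38, but of 77 probe sets, when 26.3% of all probe sets were called. In the other alternatives 21.1% to 37.2% of all probe sets were called. Centring on the plastid mean turned the median difference of the members to -0.18, by construction. The other counts were small, so single genes moved them. In WT the temperature count of 0 became 1 in A and B only (psbE) and 1 with array weights (rps18, lower). In elf3-7 the count of 0 became 2 with the replicate block, 1 with a term for replicate C, 4 with array weights and 0 to 1 when an array was left out. In tfl1-1 the count of 2 became 5 with the replicate block, with a term for C and with array weights, 4 in A and B only, 0 when centred on the plastid mean and 0 to 3 when an array was left out. Equal array medians and the dim filter each gave 3 in tfl1-1, when 9.72% and 13.7% of all probe sets were called. In tfl1-1 the letters were not taken to pair the arrays. For elf3-7 against WT at 16 °C, array weights gave 1 call (psbL, lower). For the mean over genotypes the count of 4 became 7 with the replicate block, 7 with a term for C, 7 in A and B only, 8 with array weights, 1 (rps16, lower) when centred, and 4 to 6 when an array was left out. Equal array medians and the dim filter each gave 5 for that mean, when 32.1% and 41.6% of all probe sets were called. The replicate block changed no other call count among the members by over 1.5 times. The cause of these changes was not tested, and in tfl1-1 psbA was also called without replicate B at 16 °C. Centring also turned 8 genes that were called higher in replicate C: psbJ (-0.31, called lower), atpE (-0.24), matK (-0.19), ndhE (-0.13), clpP (-0.13), psbT (-0.071), ccsA (-0.066) and psaJ (-0.030). No other alternative turned a called member. Array weights called 19.4% of all probe sets in elf3-7, 31.2% in tfl1-1, 15.6% in WT, 2.36% for elf3-7 against WT at 16 °C and 44.2% for the mean over genotypes. The replicate block called 17.6% in tfl1-1 and 39.3% for the mean, and A and B alone 35.9% for the mean, so the members' shares lay below the background in each of these. Taking 1 probe set per gene left the members as they were, since each gene had only 1. Centring on the plastid mean also moves the median of all probe sets, to 0.23 in WT and -0.12 in tfl1-1 for temperature and to between -0.34 and 0.20 in the other comparisons of groups.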
